A study of Equus caballus with 28 samples.

Results

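The microRNAs (miRNAs) miR-105 and miR-767 form an X-linked pair, and their counts are described here across 6 groups of equine samples. They were taken by name, as every known mature miRNA called eca-miR-105 or eca-miR-767 with any suffix. This gave 3 miRNAs, eca-miR-105, eca-miR-767-5p and eca-miR-767-3p, of 690 known and 844 known and predicted miRNAs. The pair was selected on its read counts, which lay mostly in embryonic tissue. Comparisons with the embryo or YS (yolk sac) fluid are therefore given for these 3 miRNAs as values without a test. The prefix eca marks the horse, and 5p and 3p are the strands cut from either side of the hairpin precursor.

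Small RNA was sequenced from 28 samples of Warmblood mares, all taken 13 days after ovulation, when the conceptus moves through the uterus and maternal recognition of pregnancy takes place. The groups were endometrial biopsies of 5 pregnant and 4 cyclic mares, uterine fluid (UF) from 5 pregnancies and 4 cycles, and 5 embryos with the fluid of their yolk sac (YS). Ovulation had been induced with human chorionic gonadotropin, and the pregnancies came from insemination with semen of a single stallion. The same mares served for pregnant and cyclic cycles. Sample numbers 1 to 5 were read as mare numbers, and mare 5 contributes pregnant samples alone. UF was collected with a tampon, and YS fluid was aspirated from the embryo with a needle, and the capsule was kept apart from the embryonic tissue. The extraction kit differed between fluids and tissues, so that sample type and kit cannot be told apart wherever a fluid is set against a tissue.

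miRNAs are short RNAs that guide silencing complexes to messenger RNAs, mainly through a seed near their 5′ end. In mammals the genes of miR-105 and miR-767 lie side by side in an intron of GABRA3, a gene for a subunit of the GABA-A receptor. In human tissues the pair is known as a cancer-germline unit, silent in most adult tissues and active in germ cells and in some tumours. The seed of human miR-767-5p overlaps that of the miR-29 family, and both are known to repress TET enzymes, which oxidise methylated cytosine in DNA. In the RefSeq annotation of the horse assembly TB-T2T, MIR105 and MIR767 were neighbours on chromosome X, both within GABRA3, in the order GABRE, MIR105, MIR767 and GABRQ.

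Depth set how low a level could be seen. miRNA reads per library numbered 280065 to 590593 in pregnant endometrium, 61836 to 371630 in cyclic endometrium, 79173 to 152860 in pregnant UF, 62087 to 226308 in cyclic UF, 28204 to 44768 in embryos and only 4352 to 14531 in YS fluid. Values are given as reads and as CPM, the reads divided by the library's miRNA reads and scaled to 1e+06. A single read was worth 22.3 to 35.5 CPM in an embryo, 68.8 to 230 CPM in YS fluid and 1.69 to 3.57 CPM in pregnant endometrium. Confidence intervals are exact 95% intervals, and, like the floor of 3 reads used for lower bounds, they cover counting error only. The tissue labels were checked against marker miRNAs. The 8 miRNAs of the miR-302 and miR-371 groups, typical of pluripotent cells and early embryos, summed to 12020 to 65295 CPM in embryos and to at most 32.2 CPM in any maternal library. Stromal and smooth muscle miRNAs summed to 246 to 1135 CPM in embryos, with 5 of 7 detected, and to 30278 ± 15312 CPM (SD, n = 5) in pregnant endometrium. In this list miR-199a-3p and miR-199b-3p had 40 reads each in embryos, with equal means and ranges. The same reads may thus stand in both entries and in the sums. The leukocyte list, with 3 of 4 detected, summed to 48.3 to 193 CPM in embryos against 3048 ± 222 CPM in pregnant endometrium.

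The reads of the pair lay mainly in the embryos. Of 617 reads of the 3 miRNAs in 28 libraries, 591 (95.8%) came from the 5 embryos. The share was 96.1% for miR-767-5p, 95.7% for miR-767-3p and 89.3% for miR-105. Almost all of the rest came from YS fluid, which held 22 of the reads of the pair, and the 18 maternal libraries had 4 reads together, all of miR-767-5p. These shares are not scaled for depth, and YS fluid held 53989 miRNA reads in all against 179448 in embryos. In bulk samples, fewer cells of a type and less RNA per cell cannot be told apart.

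**Figure D1:**
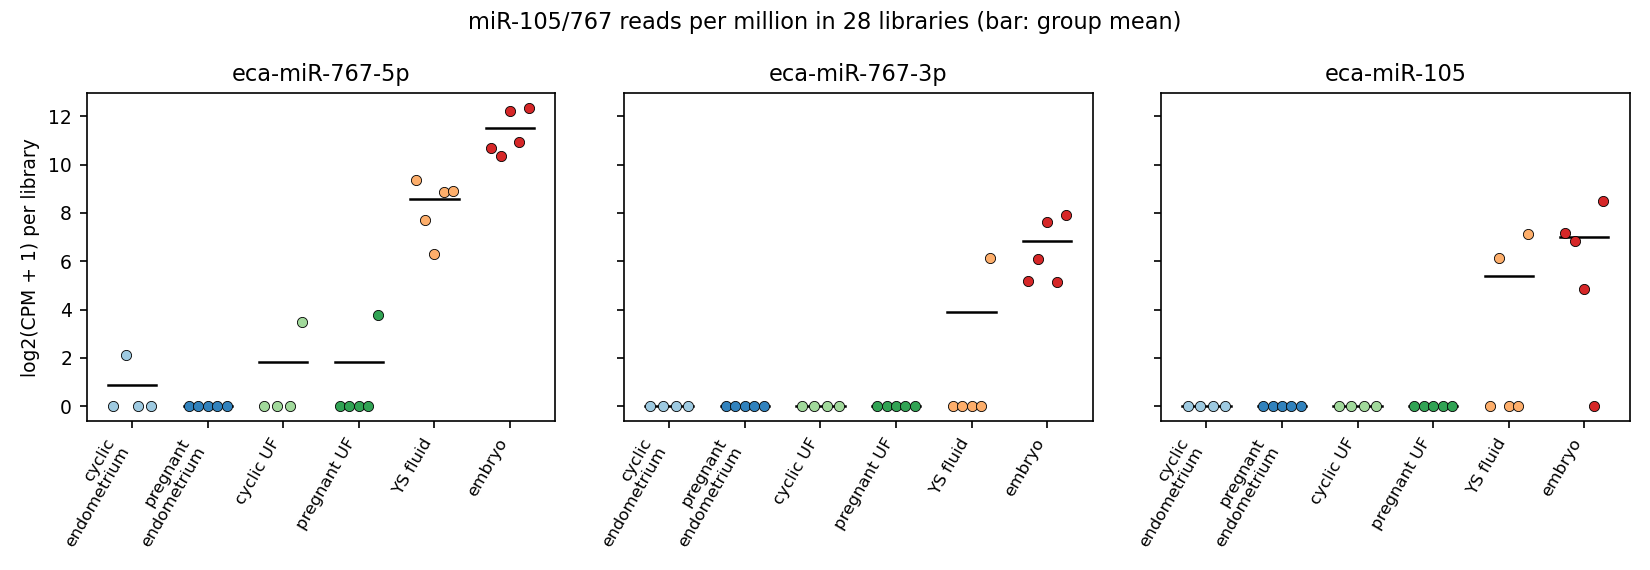
Each point is a library, placed by its sample group on the horizontal axis and by log2(CPM + 1) of 1 of the 3 miRNAs on the vertical axis, where 0 stands for no read and the bar for the group mean. miR-767-5p had reads in 5 of 5 embryos and 5 of 5 YS fluids, whereas miR-767-3p and miR-105 had none in any of the 18 maternal libraries.

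miR-767-5p, the strand whose human counterpart has the miR-29-like seed, was the abundant product. The embryos of mares 1 to 5 gave 46, 58, 171, 57 and 212 reads, which equals 1631, 1296, 4723, 1974 and 5120 CPM. The mean was 2949 ± 1822 CPM (SD, n = 5), which placed it 44th among the 257 known miRNAs with a read in embryos. The embryos of mares 3 and 5 stood above the other 3. Their exact intervals, 4043 to 5485 CPM and 4456 to 5856 CPM, did not overlap the widest interval among the others, 1496 to 2557 CPM for mare 4. The coefficient of variation was 61.8%, against a median of 43.8% over the 127 known miRNAs with a mean of at least 100 CPM in embryos, of which 26 varied more.

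Sequencing depth was set beside these levels. The embryo libraries of mares 1, 4, 3 and 5 held 28204, 28869, 36203 and 41404 reads, the same order as their CPM. The deepest library, that of mare 2 with 44768 reads, had the lowest CPM. Known miRNAs made up 17953 reads for mare 1, against 26366, 33359, 38533 and 42519 for mares 4, 3, 5 and 2. The rest were predicted miRNAs, which CPM counts in the total and which were most frequent in mare 1. The order of mares 1 and 4 depends on counting them. The part of depth in the result was not tested. The stromal and smooth muscle list was also highest in the embryos of mares 3 and 5, at 967 and 1135 CPM, against 246 to 693 CPM in the others. Both miR-199 entries of equal counts enter these sums, which rest on few reads. miR-143 of this list had 9 and 19 reads in these embryos, against 3 to 8 in the others. The other marker lists had other orders. The endothelial list was highest in the embryo of mare 4 and the endoderm list in that of mare 2. The erythroid list was highest in mare 5, followed by mare 4, and the epithelial and leukocyte lists in mare 3. The part of these lists in the result was not tested. The most abundant pluripotency-type miRNAs had another order. miR-302d, a product of the miR-302 cluster, was highest in the embryo of mare 2 with 12554 CPM and lowest in that of mare 1 with 2624 CPM. miR-372 was highest in the embryo of mare 4 with 19086 CPM and lowest in that of mare 1 with 3794 CPM. That lowest rank also depends on counting predicted miRNAs in the total.

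miR-767-3p, the other strand of the hairpin, gave 1, 3, 7, 1 and 10 reads in the embryos of mares 1 to 5, with a mean of 114 ± 96.5 CPM (SD, n = 5). The same 2 embryos, of mares 3 and 5, were highest for both strands. The 5p strand made up 544 of 566 miR-767 reads in embryos (96.1%, exact interval 94.2 to 97.5%). The share lay between 95.1% and 98.3% in single embryos and rests on 1 to 10 reads of the 3p strand in each. In YS fluid it was 18 of 19 reads (94.7%, 74.0 to 99.9%).

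miR-105 was scarce beside its neighbour. The embryos of mares 1 to 5 gave 4, 5, 1, 0 and 15 reads, with a mean of 129 ± 143 CPM (SD, n = 5), rank 119 of 257. Of the reads of the 3 miRNAs in embryos, 25 of 591 were miR-105 (4.23%, 2.76 to 6.18%). The share differed between embryos that were alike in miR-767-5p. It was 6.33% (3.59 to 10.2%) in the embryo of mare 5 and 0.559% (0.0141 to 3.07%) in that of mare 3, and these intervals do not overlap. In the embryo of mare 4 there were 0 of 58 reads, with an exact upper limit of 6.16%. The counts do not name the strand of miR-105, and reads per miRNA also depend on how well each sequence is ligated, so the ratio of miR-105 to miR-767 is one of reads.

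**Figure D2:**
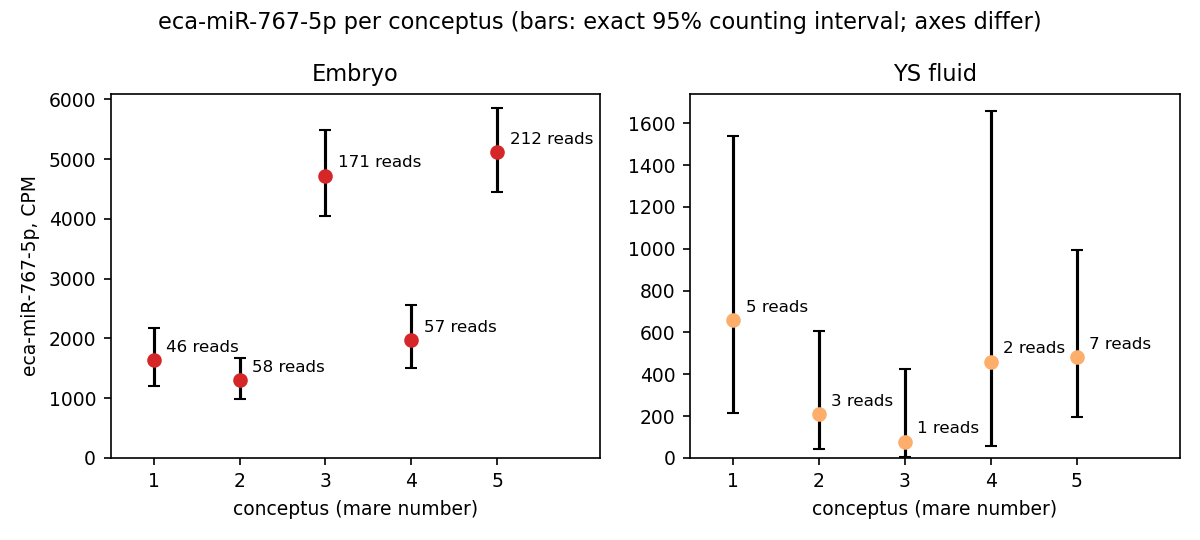
CPM of eca-miR-767-5p on the vertical axes for the embryo (left) and its YS fluid (right), by mare number on the horizontal axis, with exact 95% counting intervals as bars and the reads beside each point. The embryos of mares 3 and 5 stand apart from the other 3, whereas the intervals of the 5 YS fluids, which rest on 1 to 7 reads each, overlap.

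YS fluid held the next highest level. The fluids of mares 1 to 5 gave 5, 3, 1, 2 and 7 reads of miR-767-5p, which equals 659, 208, 76.5, 460 and 482 CPM, with a mean of 377 ± 233 CPM (SD, n = 5) and rank 102 of 247 known miRNAs with a read. The highest fluid lay below the lowest embryo. Among 259 miRNAs tested between embryo and YS fluid, 7.72% were likewise higher in every embryo than in every fluid, a share given for reference because the pair was chosen for this pattern. The mean in embryos was 7.82 times that in YS fluid. The interval of 5.70 to 15.5 belongs to the ratio of pooled reads and does not cover the spread between conceptuses. Within a conceptus the ratio of embryo to fluid was 2.47, 6.24, 61.7, 4.30 and 10.6 for mares 1 to 5, and the ratio of 61.7 rests on a single read in the fluid. miR-105 had 3 reads in YS fluid, 1 in the fluid of mare 2 and 2 in that of mare 5, for a ratio of pooled reads of 2.51 (0.765 to 13.0). miR-767-3p had 1 read, for a ratio of pooled reads of 6.62 (1.07 to 273). Both intervals cover counting error only and are not read as tests.

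Pluripotency-type miRNAs varied in their distribution between embryo and fluid. miR-302d averaged 8146 ± 3608 CPM in embryos and 16757 ± 8460 CPM in YS fluid (SD, n = 5 each), a ratio of 0.4861. Within a conceptus, this ratio was 0.149, 0.762, 0.271, 1.55 and 0.573, and the embryo had the higher value only for mare 4. miR-372 averaged 10182 ± 6565 CPM in embryos and 21680 ± 35148 CPM in YS fluid, where the fluid of mare 2 alone reached 84400 CPM. Its ratio within a conceptus was 0.464, 0.104, 0.879, 2.31 and 6.43, higher in the embryo for mares 4 and 5. miR-371-5p was higher in the embryo for 3 of 5 conceptuses, of mares 3, 4 and 5, with ratios of 1.34, 1.54 and 2.62. For mares 1 and 2 its ratios were 0.110 and 0.0120, and its ratio of means was 0.222. miR-367 was also higher in the embryo for mares 3, 4 and 5, with only 6 reads in YS fluid and a ratio of means of 1.89. miR-767-5p was higher in the embryo in 5 of 5 conceptuses. The difference between these ratios was not tested, since miR-767-5p had been chosen for its embryonic level.

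In the endometrium the pair was at or near 0. All 3 miRNAs had 0 reads in the 5 pregnant libraries, in 1840629 reads together, where the floor of 3 reads over the group equals 1.63 CPM and the exact upper limit is 2.00 CPM. In cyclic endometrium there was 1 read of miR-767-5p, in mare 2 (3.32 CPM), and none of the others. Relative to the floor of 3 reads per library, averaging 8.76 CPM, miR-767-5p was at least 337-fold higher in embryos than in pregnant endometrium, miR-105 at least 14.7-fold and miR-767-3p at least 13.1-fold. These bounds were 115-fold, 4.81-fold and 4.31-fold when libraries were scaled by TMM, edgeR's trimmed mean of ratios, in place of their totals. miR-767-5p and miR-767-3p were higher in every embryo than in every pregnant endometrium, as were 27.9% of the 359 miRNAs tested, and miR-105 was not because the embryo of mare 4 had no read.

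UF, which surrounds the conceptus, held hardly any reads of the pair. Pregnant UF had 1 read of miR-767-5p, in mare 5, among 569244 reads, or 1.76 CPM (0.0445 to 9.79 CPM). Cyclic UF, with no conceptus in the uterus, had 2 reads, in mare 4, among 657570 reads, or 3.04 CPM (0.368 to 10.99 CPM). These intervals overlap almost entirely. No read of miR-105 or miR-767-3p was counted in UF, where the floor of 3 reads over the pregnant group equals 5.27 CPM and the exact upper limit is 6.48 CPM. By pooled reads, miR-767-5p was 1726-fold higher in embryos than in pregnant UF, with an interval of 308 to 68284 because a single read, under the floor of 3, stands in the denominator. The ratio of group means was 1167 by library totals, 787 under RLE, the median-ratio scaling, and 503 under TMM. The bounds for miR-105 and miR-767-3p were 4.56-fold and 4.06-fold by library totals and 1.77-fold and 1.59-fold under TMM.

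Pregnancy could not be related to the pair in maternal samples. None of the 3 miRNAs passed the filter of at least 1 CPM in as many libraries as the smaller group has, in either comparison of pregnant with cyclic mares. Of the miRNAs that did, 3.37% of 386 in the endometrium and 4.92% of 305 in UF were called by edgeR's quasi-likelihood test, where a call needs an adjusted p (false discovery rate, FDR) of 0.05 or less and a 2-fold change or more. In a two-sided exact permutation test of CPM, miR-767-5p gave p = 0.889 in the endometrium and p = 1 in UF. With reads in 1 of 9 endometrial and 2 of 9 UF libraries, these tests could not have shown a difference, and the other 2 miRNAs had no read to test. The same exact permutation test of UF against endometrium gave p = 1 in pregnant and in cyclic mares.

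YS fluid was set beside the samples of pregnant mares as values without a test. miR-767-5p had a read in 5 of 5 YS fluids and in 0 of 5 pregnant endometria and 1 of 5 pregnant UF. The 5 fluids were above every maternal library of either group. The pair was picked with these counts known, and 20.2% of 341 miRNAs tested against pregnant endometrium and 24.9% of 277 tested against pregnant UF likewise had every YS fluid above every library of that group. miR-767-5p passed the filter of the fit across all miRNAs only through its 18 YS fluid reads, so no value of that fit is given for it. Against pregnant endometrium, which had no read, it was at least 43.0-fold higher in YS fluid by library totals and 10.8-fold under TMM. Its mean in YS fluid was itself close to the mean floor of 3 reads there. The values were 377 against 346 CPM by library totals and 159 against 153 CPM under TMM. Against pregnant UF, with 1 read, the ratio of pooled reads was 189.8 (29.97 to 7907), and the ratio of group means was 149 by library totals and 47.2 under TMM. For miR-105 and miR-767-3p no fold is given, because their levels in YS fluid were under the floor.

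The miR-29 family, whose seed overlaps that of human miR-767-5p, had the opposite distribution. The summed level of miR-29a, miR-29b and miR-29c was 140 ± 93.0 CPM in embryos and 150 ± 181 CPM in YS fluid, from 23 and 6 reads. It was 1879 ± 1075 CPM in pregnant endometrium, 1373 ± 559 CPM in cyclic endometrium, 1495 ± 326 CPM in pregnant UF and 1501 ± 706 CPM in cyclic UF (SD, n = 5 or 4). The highest embryo, with 284 CPM, lay below the lowest maternal library, with 467 CPM. The share of all miRNAs separated in this way is not given here. Of 359 miRNAs tested, 42.6% were called lower in embryos than in pregnant endometrium. miR-767-5p had more reads than the miR-29 family in 5 of 5 embryos and in 3 of 5 YS fluids, with a tie in another, and the miR-29 family had more reads in 18 of 18 maternal libraries.

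**Figure D3:**
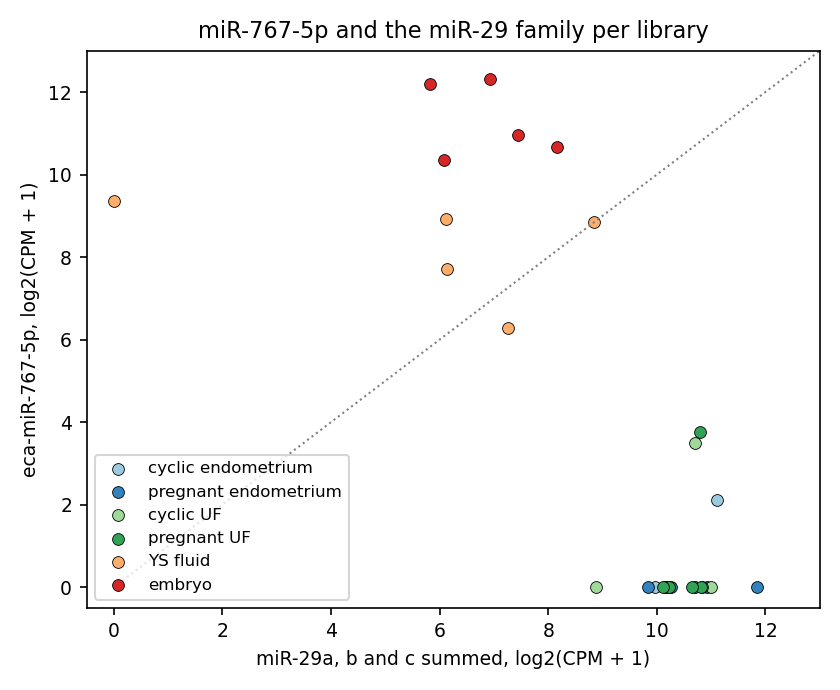
Each point is a library, with the summed CPM of miR-29a, miR-29b and miR-29c on the horizontal axis and that of eca-miR-767-5p on the vertical axis, both as log2(CPM + 1), and the dotted line marks equal values. The 5 embryos lie above the line and the 18 maternal libraries below it.

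miR-29a and miR-29c were lower in the conceptus in each comparison with pregnant mares' samples that is given here. Against pregnant endometrium, miR-29a fell by 5.30 on the log2 scale in embryos (SE 0.69, adjusted p = 3.9e-05) and had a log2 fold change of -5.97 in YS fluid (SE 0.63, adjusted p = 1.5e-06) in edgeR's quasi-likelihood test. miR-29c fell by 4.26 in embryos (SE 0.63, adjusted p = 0.0001) and had a log2 fold change of -6.13 in YS fluid (SE 1.01, adjusted p = 8.8e-05). YS fluid held only 5 reads of miR-29a and 1 read of miR-29c, which lay in the library of mare 4. Without mare 4 the value of miR-29c in YS fluid against endometrium was -9.47, without mare 5 it was -5.09, and without mare 1 that of miR-29a in embryos was -6.43. By library totals the values were -4.04 for miR-29a and -3.02 for miR-29c in embryos and -3.98 and -4.22 in YS fluid, and the calls held in each of these. Against pregnant UF, YS fluid was lower by a log2 fold change of -5.11 for miR-29a and -5.80 for miR-29c, with adjusted p of 1.7e-06 and 2.7e-05, and miR-29c was at -8.10 without mare 4. miR-29b was the rarest, with 31 reads in pregnant endometrium and 0 in embryos and YS fluid. It was called lower in both, but its level in endometrium, 18.5 CPM, was under the floor of 3 reads in these shallow libraries, so its absence was not detectable at this depth, and against YS fluid the call was lost under several alternatives. The median log2 fold change of the family was -4.26 in embryos and -5.97 in YS fluid with miR-29b at its bound, against -0.02 and -0.08 over all miRNAs tested. The share called lower over all miRNAs was 42.6% in embryos and 35.2% in YS fluid against endometrium, and 35.7% in YS fluid against UF. Markers of several endometrial cell types were also lower in the embryos. Called were 7 of 7 stromal and smooth muscle, 2 of 2 endothelial, 4 of 4 erythroid and 4 of 4 leukocyte miRNAs. The erythroid miR-144 and the leukocyte miR-142-3p had 0 reads in embryos. Their endometrial levels, 28.3 and 24.9 CPM, were under the embryonic floor, so their absence was not detectable either. The stromal list includes the 2 miR-199 entries with equal counts in embryos. The epithelial list went the other way in sum, at 120143 ± 16044 CPM in embryos and 61530 ± 10022 CPM in pregnant endometrium (SD, n = 5 each), with 1 of 6 called higher and 3 lower under TMM. The part of these cell types in the result was not tested.

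Known miRNAs whose levels ran most like those of miR-767-5p were sought over the 28 libraries among 239 known miRNAs with at least 30 reads. The highest Pearson correlations of log2(CPM + 2) were those of miR-378 (0.9496), miR-182 (0.943), miR-372 (0.940), miR-130b (0.937) and miR-302b (0.929). They describe mainly the step between conceptus and maternal libraries, which also differ in depth. These 5 differed in how low they went. miR-378 and miR-182 kept means of 1545 and 2263 CPM in pregnant endometrium and reached 43050 and 41769 CPM in embryos. miR-130b averaged 12.1 CPM in pregnant endometrium and 1568 CPM in embryos. miR-372 and miR-302b had 0 reads in pregnant endometrium and in pregnant UF, where miR-767-5p had 0 and 1. miR-182, as a single one of the 5, also had a YS fluid mean, 9489 CPM, several times below that of embryos. By Spearman correlation 2 of these 5 remained among the first 5, and with 20 CPM added in place of 2 it was 3.

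**Figure D4:**
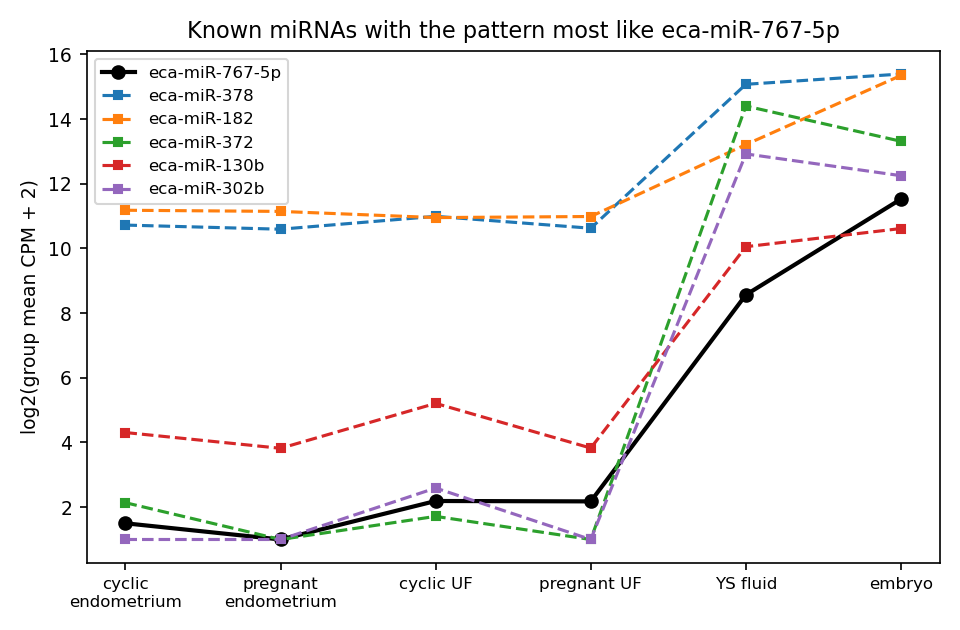
Group means of eca-miR-767-5p and of the 5 known miRNAs with the most similar pattern, as log2(mean CPM + 2) on the vertical axis over the 6 sample groups. The conceptus groups lie above the maternal groups for all 6 miRNAs, and miR-378 and miR-182 start from means of 1545 and 2263 CPM in pregnant endometrium.

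The other miRNAs of chromosome X moved in both directions. Of 47 known X-linked miRNAs outside the pair, 32 were tested between embryos and pregnant endometrium, where 10 were called higher and 12 lower in embryos. The 12 include miR-509a-5p, which had 0 reads in embryos and an endometrial level, 12.1 CPM, under the embryonic floor. Over all 359 miRNAs 28.7% were called higher and 42.6% lower, so that under TMM neither share stands far from the background. By library totals in place of TMM, 14 X-linked miRNAs were called higher and 5 lower. On that scale 59.8% of the calls over all miRNAs were higher in embryos. The median log2 fold change of the X-linked miRNAs was -0.43 as fitted and -0.09 with miRNAs at 0 reads in a group set to their bound, against -1.03 and -0.02 over all miRNAs tested.

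The X-linked miRNAs with the largest increase belonged to the miR-106a/363 cluster, a relative of the miR-17/92 cluster that is active in early embryos and stem cells. miR-20b averaged 2958 ± 773 CPM in embryos and 8.10 ± 5.59 CPM in pregnant endometrium, with a log2 fold change of 7.14 (SE 0.77, adjusted p = 7.9e-06, quasi-likelihood test). miR-363 averaged 658 ± 486.4 CPM and 5.62 ± 3.47 CPM, with a log2 fold change of 5.51 (SE 0.79, adjusted p = 8.3e-05). miR-18b had 29 reads in embryos and 0 in pregnant endometrium, at least 6.82-fold higher under TMM. miR-20b had a mean in embryos close to that of miR-767-5p but was higher in YS fluid, with 18472 ± 6507 CPM. Among those that fell were miR-221, which is abundant in vascular and stromal cells, with a log2 fold change of -5.87 (SE 0.47), miR-223, a myeloid miRNA that also stands in the leukocyte list, with -5.41 (SE 0.85), and miR-98, a let-7 relative, with -5.25 (SE 0.47), with adjusted p of 7.9e-07, 0.000169 and 2.0e-06.

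**Figure D5:**
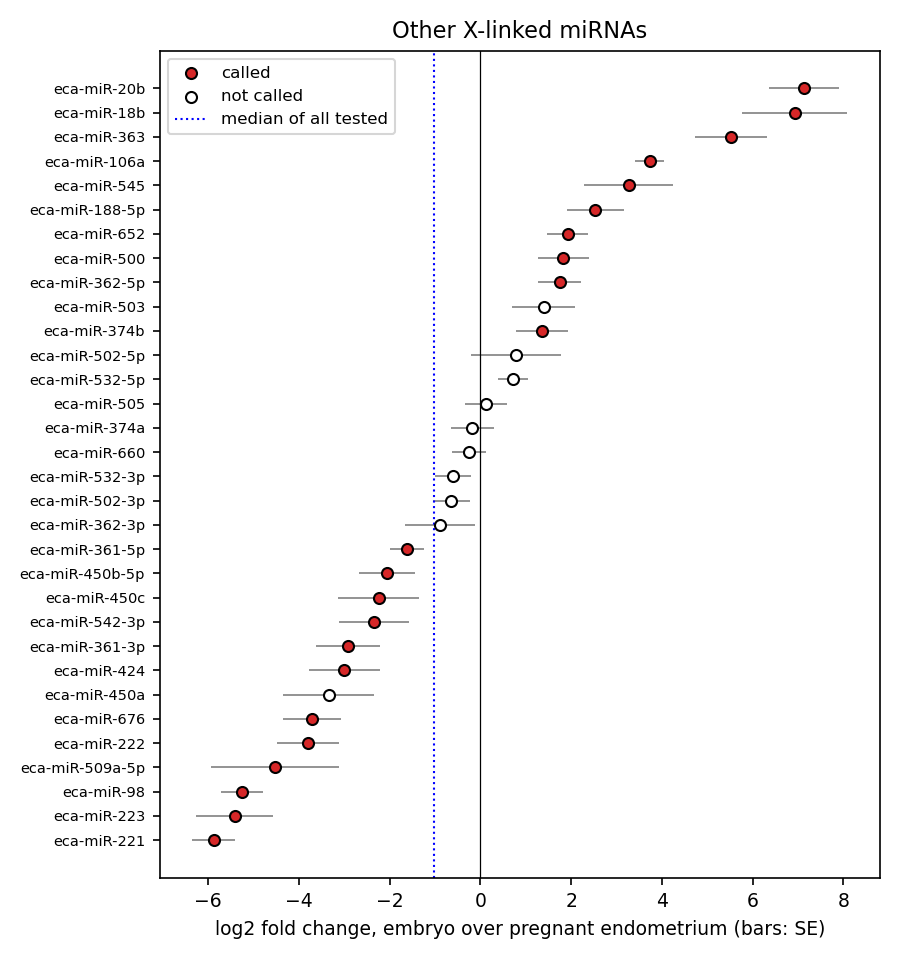
TMM-scaled log2 fold change of embryos over pregnant endometrium with its standard error on the horizontal axis for the 32 X-linked miRNAs tested, 1 row each, with filled points for called miRNAs. The 10 called higher are led by miR-20b, miR-18b and miR-363 and the 12 called lower by miR-221, miR-223 and miR-98, and the dotted line is the median over all 359 miRNAs, -1.03.

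Other X-linked miRNAs known from GABA-A receptor genes or from testis were not seen in the embryos. miR-224, which lies in GABRE next to GABRA3 in the same annotation, had 3 reads in all, in 2 pregnant UF libraries, and 0 in embryos. Members of the testis-rich miR-506 group were looked up after their values were seen. miR-508-3p and miR-508-5p had no read in any library. miR-509a-5p had 22 reads in pregnant endometrium and 0 in embryos, and miR-514 had 5 and 0. Their endometrial levels, 12.1 and 3.17 CPM, were under the embryonic floor, so a like level in embryos would not have been detectable.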

How the data were processed

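The members and the comparison lists were chosen with earlier results of these data known. After adapter trimming with cutadapt 1.11 and quality filtering, the authors ran miRPro to count reads per mature miRNA, for horse entries of miRBase and for miRNAs predicted from EquCab2.0. They deposited raw counts without normalization. How reads that match several miRNAs were shared is not given in the sources used here. The precursor counts equal the predicted mature counts and were left out. Known and predicted miRNAs were analysed together.

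The 9 comparisons were fitted separately, each with the libraries of its 2 groups, in edgeR 4.0.16 under R 4.3.3 (filter of 1 CPM in as many libraries as the smaller group, TMM, quasi-likelihood test, Benjamini-Hochberg; called at FDR of at most 0.05 and 2-fold). The mare, taken from the sample number as the study describes the same mares in both cycles, entered as a block in the 2 pregnancy comparisons, which leaves mare 5 out of the contrast. Deviations of same-mare samples had a mean correlation of 0.174 in endometrium and 0.254 in UF. Named were the members, the 5 miRNAs of most similar pattern, the miR-29 family, miR-224, the 3 X-linked miRNAs of largest called change in each direction with a group mean of at least 100 CPM, and the 2 most abundant of the pluripotency list. X-linked miRNAs matched RefSeq symbols in 47 of 47 cases. Alternatives were RLE scaling, the likelihood ratio test, DESeq2 1.42.0, no filter or filterByExpr, known miRNAs only, the block added or left out, each replicate left out and, added after seeing the data, library totals without TMM. The fit was also run on simulated counts with miRNAs changed in random direction, which does not cover the effect of scaling between unlike sample types. Exact tests and intervals used scipy 1.17.1 in Python 3.11.15.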

Additional observations from a re-analysis of the deposited data

How the results depend on the processing

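The mean of miR-767-5p in YS fluid moved from 377 CPM to 159 CPM under TMM over 28 libraries and to 264 CPM under RLE. Scaling moved the median of all miRNAs in embryos against pregnant endometrium by 1.32 (log2) when TMM was left out and by 0.47 under RLE, and the share of calls that were higher in embryos from 40.2% to 59.8% and 46.4%. In YS fluid the share went from 33.7% to 66.9% and 47.3% against endometrium and from 39.6% to 68.3% and 52.7% against UF. In embryos it went from 43.4% to 63.2% and 53.7% against UF, and from 62.6% to 42.1% and 60.2% against YS fluid. The call of miR-29b in YS fluid was lost under RLE (adjusted p = 0.0738), library totals (0.243), DESeq2 (0.0969), known miRNAs only (0.0614) and without mare 5 (0.0664).

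Counts over all miRNAs fell with filterByExpr: pregnant against cyclic endometrium from 13 to 3, UF from 15 to 0 (19 at an unadjusted p under 0.05; DESeq2 called 10 with the 1 CPM filter), pregnant UF against pregnant endometrium from 121 to 75, YS fluid against pregnant UF from 164 to 90, embryos against pregnant endometrium from 256 to 140, against YS fluid from 91 to 40 and against pregnant UF from 212 to 101. With known miRNAs only, pregnancy gave 2 calls in endometrium and 3 in UF. Without the replicate block both counts were 0 (58 and 35 at an unadjusted p under 0.05; DESeq2 with the block called 12 and 10). A replicate block lowered embryos against YS fluid to 54 and moved no other comparison by more than 1.5 times. Leaving out 1 mare gave 3 to 26 calls in UF (26 without mare 1, 7 without mare 2, 3 without mare 3 or 4) and 40 to 74 in embryos against YS fluid (46 without mare 2, 48 without mare 4, 40 without mare 5). Of the 5 most similar miRNAs, 2 remained by Spearman correlation and 3 with 20 CPM added.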
